A study of Homo sapiens with 15 samples.

Results

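SOX17, FOXA1, FOXA2, FOXA3, HNF4A and HHEX are transcription factors that mark and pattern the endoderm, the germ layer that gives rise to gut, liver and pancreas. They were chosen by gene symbol and make up 6 of the 60605 genes in the count table. All 6 had at least 1 FPKM (fragments per kilobase of exon, scaled to the library's total count) in at least 1 of the 15 libraries, the filter that 21206 genes passed.

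The libraries came from H1, an established human embryonic stem cell line, and every group was 1 RNA-seq library. All cultures received CHIR-99021, a WNT activator, on Day 0, and insulin was added to the basal DF medium on Day 1. Days 0, 1 and 2 were shared by 3 arms, each sampled on Days 3, 5, 7 and 10: static culture without further treatment (NP-ctrl), static culture with the WNT secretion inhibitor IWP2 from Day 2 to Day 4 (NP-IWP2), and cells detached with EDTA on Day 2, then replated with no WNT inhibitor (passaged). Passaged cells were split, so they were replated at a lower density. The study also reports adding a ROCK inhibitor in the differentiation experiments that followed its tests of cell survival. For cardiac fate, the study reports an effect of passaging at various split ratios, including replating of an unchanged number of cells. It also reports that most dissociated cells took this fate with or without the inhibitor. The parts of density and inhibitor in the levels of the endoderm factors were not tested here. The 4 days of an arm were one series of cultures of a single line, so p-values measure the spread between days and not between independent cultures. The comparison asked how the endoderm factors behaved when mesendoderm progenitors were left alone, steered by WNT inhibition or passaged.

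Library totals ran from 13254723 to 20250115 counts. The pluripotency genes POU5F1 and NANOG stood at 625 and 37.2 FPKM on Day 0 and both were at or below 0.03 FPKM in the 3 Day 10 libraries. The share of counts on mitochondrial genes was 1.53% in the passaged library of Day 3 and 10.3% in that of Day 10, against 3.71% to 6.14% in the other 13 libraries, and its part in the results was not tested.

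As background, SOX17 is a SOX-family factor required for definitive endoderm and is also used by endothelium. FOXA1, FOXA2 and FOXA3 are forkhead factors that bind and open closed chromatin at gut and liver genes, and FOXA2 is in addition active in the anterior primitive streak and in axial mesoderm. HNF4A is a nuclear receptor that holds the hepatocyte and visceral endoderm programmes, and HHEX is a homeobox repressor of anterior endoderm, liver bud and early endothelium. In bulk RNA, fewer cells of a type and less RNA per cell cannot be told apart.

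In the hg38 coordinates of the deposited table, SOX17 (ENSG00000164736) lies on the plus strand of chromosome 8 from 54457935 to 54460892. FOXA1 (ENSG00000129514) lies on the minus strand of chromosome 14 from 37589552 to 37596059, and FOXA3 (ENSG00000170608) on the plus strand of chromosome 19 from 45863989 to 45873797. Chromosome 20 carries both FOXA2 (ENSG00000125798, minus strand, 22580998 to 22585455) and HNF4A (ENSG00000101076, plus strand, 44355700 to 44434596). HHEX (ENSG00000152804) lies on the plus strand of chromosome 10 from 92689955 to 92695647.

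HNF4A went from no counts to the highest count of any member, and HHEX was the member that differed most between NP-IWP2 and NP-ctrl, so the 250 bases before their annotated starts are shown. They come from RefSeq promoters of GRCh38.p14, which were read for 4 of the 6 members, and HNF4A has 2 starts there. FOXA2 had no entry, and SOX17 was left out of the reading. Capitals mark matches to AGATAA, the motif of the GATA factors, or, read on the other strand, to GTTAAT, a half-site of the HNF1 motif. The windows are chr20:44355449-44355698 and chr20:44400989-44401238 for HNF4A and chr10:92689705-92689954 for HHEX, all on the plus strand.

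HNF4A, upstream start: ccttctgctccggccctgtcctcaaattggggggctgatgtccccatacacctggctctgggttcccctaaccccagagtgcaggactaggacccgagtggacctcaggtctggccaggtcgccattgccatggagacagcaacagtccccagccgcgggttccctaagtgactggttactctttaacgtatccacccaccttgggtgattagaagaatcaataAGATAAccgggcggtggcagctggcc
HNF4A, downstream start: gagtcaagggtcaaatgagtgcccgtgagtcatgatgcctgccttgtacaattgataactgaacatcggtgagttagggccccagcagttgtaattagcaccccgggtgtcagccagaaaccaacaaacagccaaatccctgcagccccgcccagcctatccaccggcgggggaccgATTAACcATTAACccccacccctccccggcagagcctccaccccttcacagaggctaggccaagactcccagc
HHEX: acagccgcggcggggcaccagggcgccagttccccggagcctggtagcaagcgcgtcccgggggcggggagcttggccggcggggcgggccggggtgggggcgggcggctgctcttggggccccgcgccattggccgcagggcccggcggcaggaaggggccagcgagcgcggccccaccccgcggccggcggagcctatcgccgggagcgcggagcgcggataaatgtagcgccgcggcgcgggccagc

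The GATA match of the upstream HNF4A start lies 26 bases before it, and 9.17% of 35116 promoters hold AGATAA on either strand. The downstream start has a pair of HNF1 half-sites beginning 73 and 66 bases before it, and 6.23% of promoters hold GTTAAT. The HHEX window, with 81.2% GC against a median of 58.0% over all promoters, held none of the motifs searched, which were also TGTTTAC (forkhead, in 2.98% of promoters), CAAAGTCCA (HNF4, 0.325%), the full HNF1 motif, CTTTGAT (TCF/LEF, 2.26%) and ACAATGG (SOX, 2.62%), read on both strands. A match is only these letters in the window, and the gene-level counts do not say which HNF4A start was used.

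SOX17 was first read on Day 2 and fell away in all arms after Day 3. It had 0 counts on Days 0 and 1 and 597 counts (12.6 FPKM) on Day 2, which was at least 167-fold higher than Day 0 when a count of 0 is raised to a floor of 3. NP-ctrl held 16.7, 11.4, 0.71 and 1.14 FPKM on Days 3, 5, 7 and 10. NP-IWP2 held 20.5, 6.06, 0.29 and 1.91 FPKM on the same days. The passaged arm held 10.4, 0.08, 0.00 and 0.14 FPKM, the last 3 from 3, 0 and 5 counts. Each arm was thus highest on Day 3, and the passaged library was the lowest of its day on all 4 days. On Day 3 SOX17 was 1.60-fold lower in passaged than in NP-ctrl cells (95% interval 1.40 to 1.83, from counting error only, as for all intervals given here). By Day 5 the difference had grown to 136-fold (46.3 to 663), while NP-IWP2 was 1.88-fold lower than NP-ctrl. Ordered by level, Day 2 did not differ beyond counting error from NP-ctrl on Day 5, nor that library from passaged cells on Day 3.

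FOXA1 stayed low throughout, with a maximum of 2.60 FPKM in NP-ctrl on Day 5. Its 3 shared libraries read 0.44, 0.71 and 0.35 FPKM. NP-ctrl gave 0.52, 2.60, 0.92 and 1.36 FPKM on Days 3, 5, 7 and 10. NP-IWP2 gave 0.87, 2.31, 2.30 and 0.94 FPKM. In passaged cells it was 0.89, 1.08, 0.05 and 0.03 FPKM, with only 3 and 2 counts on the last 2 days. Both static arms peaked on Day 5, and the Day 5 libraries of NP-ctrl and NP-IWP2 and the Day 7 library of NP-IWP2 did not differ beyond counting error. Passaged cells had 1.73-fold more FOXA1 than NP-ctrl on Day 3 (1.12 to 2.71) and 45.8-fold less on Day 10. TTC6, on the opposite strand, overlaps FOXA1 by 213 bases and had at most 22 counts in a library.

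FOXA2 had an early and a late maximum. It rose from 0.37 FPKM on Day 0 to 12.8 on Day 1, 34.7-fold (21.5 to 60.0), and stood at 5.74 on Day 2. On Day 1 TBXT, the primitive streak and notochord gene Brachyury, was at 214 FPKM, while the axial mesoderm genes NOTO, CHRD and SHH were at or below 0.37. NP-ctrl then held 3.33, 10.6, 5.11 and 3.80 FPKM on Days 3, 5, 7 and 10. NP-IWP2 held 4.80, 8.06, 3.94 and 1.23 FPKM. The passaged arm held 6.61, 1.47, 0.05 and 0.00 FPKM. The second maximum, on Day 5, was thus present in both static arms and not in the passaged arm. On Day 3 passaged cells had the most FOXA2, 1.99-fold above NP-ctrl (1.61 to 2.46) and 1.38-fold above NP-IWP2 (1.13 to 1.68). From Day 5 the order was turned, with passaged cells 7.19-fold below NP-ctrl on Day 5 (5.49 to 9.55), 104-fold below on Day 7 from 2 counts (28.4 to 866), and at least 52.4-fold below on Day 10.

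LINC00261, a long noncoding RNA that lies 2355 bases from FOXA2 on the same strand, followed a similar course after Day 2. It read 1.45, 8.46, 5.67 and 5.60 FPKM in NP-ctrl on Days 3, 5, 7 and 10. NP-IWP2 read 1.57, 6.21, 5.02 and 2.40 FPKM. Passaged cells read 5.72, 1.04, 0.07 and 0.02 FPKM. Like FOXA2 it was highest in passaged cells on Day 3, 3.94 times the NP-ctrl level (3.24 to 4.83), and lowest there from Day 5. On Day 1, when FOXA2 was at its maximum, LINC00261 was at 0.72 FPKM. Its arm effect did not pass the test (passaged against NP-ctrl, log2 fold change -2.62, SE 1.40, edgeR adjusted p = 0.350).

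FOXA3 was the highest member in undifferentiated cells. Days 0, 1 and 2 gave 7.76, 5.56 and 7.27 FPKM, and Day 2 did not differ from Day 0 beyond counting error. NP-ctrl gave 8.02, 4.71, 2.02 and 2.83 FPKM on Days 3, 5, 7 and 10. NP-IWP2 gave 6.06, 6.22, 3.46 and 1.43 FPKM. Passaged cells gave 5.91, 1.91, 1.54 and 0.19 FPKM. All arms therefore ended below Day 0, with passaged cells lowest on each day. On Day 3, however, passaged cells did not differ from NP-IWP2 beyond counting error (172 and 174 counts). The passaged deficit against NP-ctrl was 1.36-fold on Day 3, 2.47-fold on Day 5, 1.32-fold on Day 7, where the interval of the ratio spans 1, and 15.3-fold on Day 10, from 6 counts (6.71 to 42.8). SYMPK lies 794 bases away on the opposite strand and had 1172 to 3342 counts per library, and whether any of its reads were counted for FOXA3 was not tested.

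**Figure D1:**
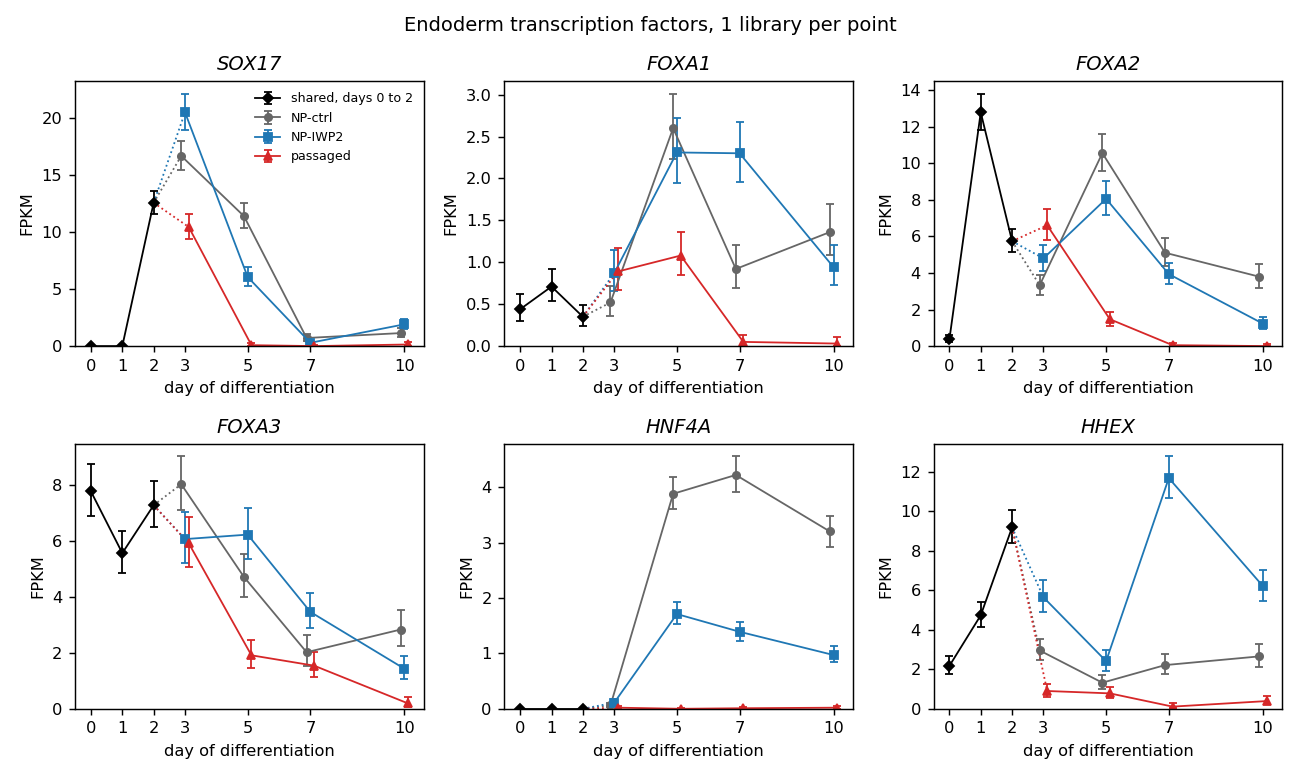
FPKM of each endoderm factor against the day of differentiation, 1 library per point, with bars for the 95% interval from counting error. Black diamonds are the shared libraries, grey circles NP-ctrl, blue squares NP-IWP2 and red triangles passaged cells. HNF4A rises to 4.22 in NP-ctrl and stays at or below 0.02 in passaged cells, and HHEX reaches 11.7 in NP-IWP2 on Day 7.

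The makeup of the FOXA family changed with time. FOXA3 gave 90.5% of the summed FOXA FPKM on Day 0, and FOXA2 gave 67.1% on Day 1. FOXA2 was the leading FOXA gene in both static arms on Days 5 and 7 and in NP-ctrl on Day 10. In passaged cells FOXA3 led on Days 5, 7 and 10, with 93.9% of a sum of only 1.64 FPKM on Day 7. The FOXA sum of passaged cells was 13.4 FPKM on Day 3, above the 11.9 of NP-ctrl and 11.7 of NP-IWP2, and 0.22 on Day 10, against 7.99 and 3.60.

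**Figure D2:**
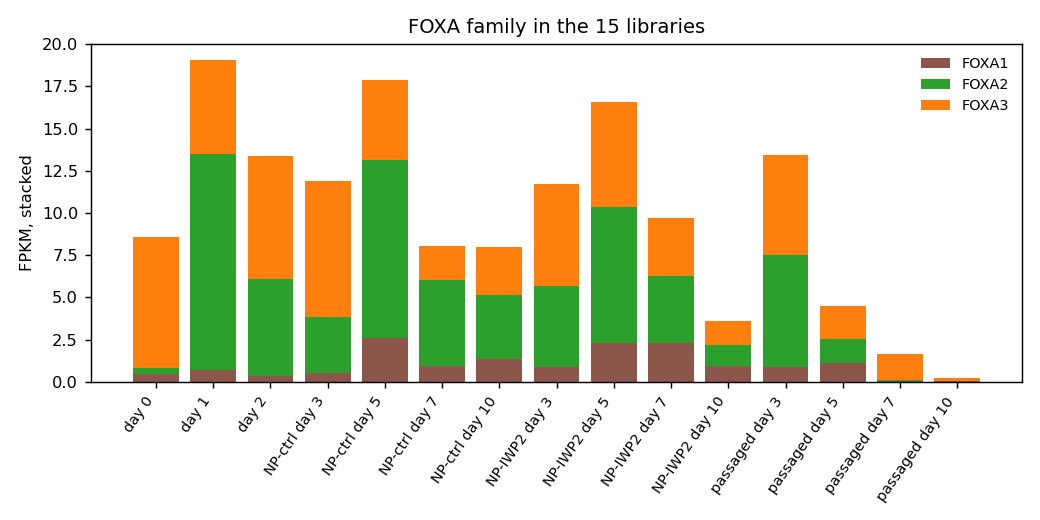
Stacked FPKM of FOXA1 (brown), FOXA2 (green) and FOXA3 (orange) in each library, 1 library per bar and the axis starting at 0. FOXA3 fills most of the Day 0 bar and FOXA2 most of the Day 1 bar, and the passaged bars shrink from 13.4 on Day 3 to 0.22 on Day 10.

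HNF4A was the latest member to appear. It had 0 counts on Days 0, 1 and 2. NP-ctrl had 11, 725, 667 and 513 counts on Days 3, 5, 7 and 10, or 0.06, 3.88, 4.22 and 3.20 FPKM. NP-IWP2 had 17, 289, 268 and 184 counts, or 0.11, 1.71, 1.39 and 0.97 FPKM. The passaged libraries had 3, 0, 2 and 3 counts, or at most 0.02 FPKM. From Day 5 the 3 arms did not overlap, with NP-ctrl above NP-IWP2 and passaged cells near or at 0. Between Days 3 and 5 HNF4A rose 68.4-fold in NP-ctrl (38.0 to 138) and 16.2-fold in NP-IWP2 (9.95 to 28.2). NP-IWP2 was below NP-ctrl by 2.26-fold on Day 5, 3.04-fold on Day 7 and 3.28-fold on Day 10. Passaged cells were at least 235-fold below NP-ctrl on Day 5, and 377-fold (104 to 3121) and 193-fold (65.8 to 940) below it on Days 7 and 10.

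The counts of HNF4A were spread over an exonic length of 11917 bases, the union of all its annotated exons, which lowers its FPKM against that of shorter genes. The study names a long-read library kit beside short-read tools, so how well counts scale with length is not known, although ratios of one gene between libraries do not depend on it. HNF4A-AS1, inside HNF4A on the opposite strand, had 18 and 51 counts in NP-ctrl on Days 7 and 10, 4 and 11 under IWP2, and 0 in every passaged library. Whether the counting used strand is not stated, so reads of the overlap cannot be assigned with certainty.

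HHEX had its highest level after Day 2 under IWP2. It rose over the shared days from 2.17 through 4.73 to 9.18 FPKM. NP-ctrl then held 2.95, 1.32, 2.21 and 2.65 FPKM on Days 3, 5, 7 and 10. NP-IWP2 held 5.64, 2.41, 11.7 and 6.21 FPKM. Passaged cells held 0.90, 0.78, 0.11 and 0.39 FPKM. NP-IWP2 was the highest and passaged the lowest library on each of the 4 days. NP-IWP2 exceeded NP-ctrl 1.91-fold on Day 3 (1.51 to 2.42), 1.83-fold on Day 5 (1.28 to 2.64), 5.27-fold on Day 7 (4.12 to 6.83) and 2.34-fold on Day 10 (1.83 to 3.02). One day after replating, HHEX in passaged cells was 10.2-fold below Day 2 (7.10 to 15.2), the largest drop of a member between Days 2 and 3, whereas NP-ctrl had dropped 3.11-fold. On Day 7 passaged cells were 110-fold below NP-IWP2 (42.8 to 407).

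Across the shared days, 1 of 6 members passed a difference of 1 on the log2(FPKM + 1) scale upward between Days 0 and 1 (FOXA2, with 3.26% of all genes tested doing so), and 3 of 6 between Days 0 and 2 (SOX17, FOXA2 and HHEX, with 6.57% of all genes). Between Days 1 and 2, SOX17 passed it upward and FOXA2 downward, with 7.00% of genes passing in either direction. From Day 2 to Day 3, HHEX passed it downward in NP-ctrl (4.35% of genes lower) and in passaged cells (5.00%), and no member passed it in NP-IWP2, where 8.98% of genes did in either direction. These are differences between single libraries, which carry no test.

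In the passaged against NP-ctrl comparison, 1 member passed the difference downward on Day 3 (HHEX, with 3.48% of genes lower by as much), 3 on Day 5 (SOX17, FOXA2 and HNF4A, 4.42%), 3 on Day 7 (FOXA2, HNF4A and HHEX, 8.29%) and 5 on Day 10 (every member except SOX17, 11.7%). None passed it upward. The median difference of the 6 members was -0.22, -1.60, -1.20 and -1.54 on Days 3, 5, 7 and 10, beside medians of 0.028, 0.00, -0.071 and -0.09 over all genes. Members lower than in NP-ctrl by any amount numbered 4 of 6 on Day 3, when FOXA1 and FOXA2 were higher, and 6 of 6 on each later day. The share of all genes lower by any amount was not computed, and their median was itself below 0 on Days 7 and 10.

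**Figure D3:**
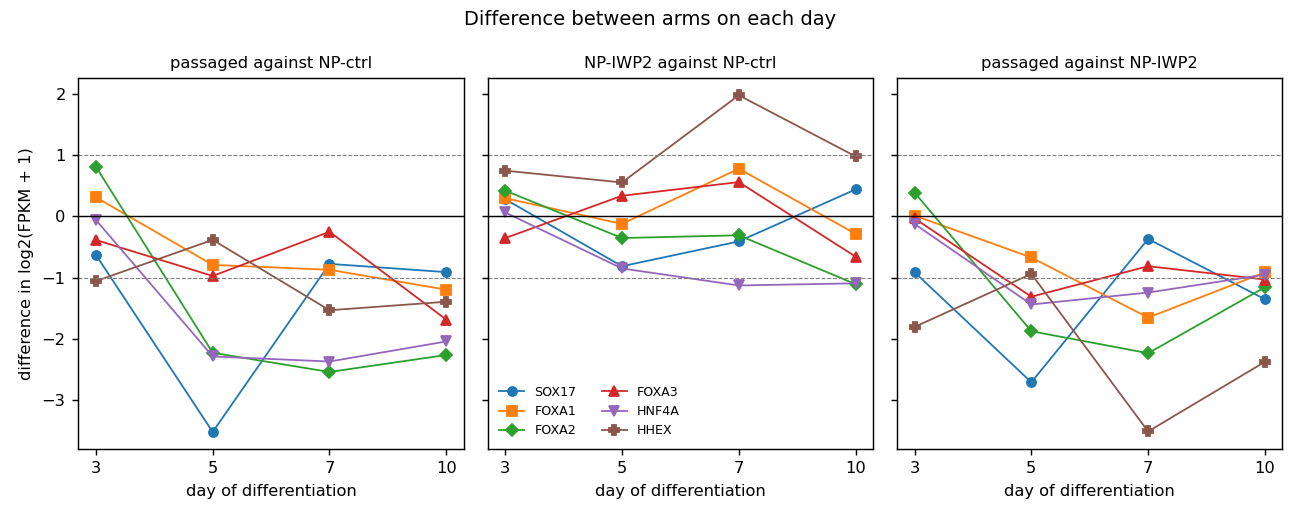
Difference in log2(FPKM + 1) between arms on Days 3, 5, 7 and 10 for the 6 members, with dashed lines at 1 and -1 and 1 library per arm and day. In passaged cells against NP-ctrl all members lie below 0 from Day 5, and in NP-IWP2 against NP-ctrl HHEX lies above 0 on all 4 days.

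Over the 4 days together, edgeR's quasi-likelihood test with the day as a block and Benjamini-Hochberg adjustment over all 21206 genes called 1 of 6 members lower in passaged than in NP-ctrl cells, HNF4A (adjusted p = 0.00105, lower on 4 of 4 days), where 4.40% of genes were called and 2.76% called lower. Its fitted size, drawn in the plot of arm effects, is no measure of the difference because passaged counts were 3 or fewer. SOX17 (log2 fold change -3.0, SE 0.85, adjusted p = 0.0727) and HHEX (-1.96, SE 0.58, adjusted p = 0.0823) were lower on all 4 days without passing. FOXA2 (-2.72, SE 1.07, adjusted p = 0.191), FOXA3 (-1.26, SE 0.47, adjusted p = 0.163) and FOXA1 (-1.66, SE 0.83, adjusted p = 0.314) did not pass either. By unadjusted p under 0.05, 5 of 6 members were lower, with 9.83% of genes.

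Without the Day 3 libraries, edgeR called 3 members lower in passaged than in NP-ctrl cells, HNF4A, SOX17 (adjusted p = 0.00269) and FOXA2 (adjusted p = 0.00490), while its calls over all genes rose from 933 to 2373. DESeq2 called 5 of 6 members lower, all but FOXA1 (adjusted p = 0.104), with HHEX at 0.00721 and FOXA3 at 0.0485. It called 2150 of 21206 genes in either direction. With no filter on low values edgeR called all 6 lower, among 2571 genes called in either direction. More than 21206 genes were tested there, and the share called lower is not given here. Over all alternatives the edgeR, DESeq2 and limma adjusted p ran from 1.85e-07 to 0.788 for SOX17, from 3.38e-05 to 0.688 for FOXA2, from 9.48e-05 to 0.309 for HHEX, from 0.0129 to 0.720 for FOXA3 and from 0.0149 to 0.729 for FOXA1. The call of HNF4A held in 7 of 10 alternatives and was lost with limma (adjusted p = 0.0715), with only both arms in the edgeR fit (0.0530) and without the day in the model (0.106).

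Between NP-IWP2 and NP-ctrl, which shared its NP-ctrl libraries with the comparison above, the same edgeR test called none of the 6 members and 1 of 6 at an unadjusted p under 0.05, and DESeq2 also called none. Over all genes edgeR called 4 (0.0189%) and DESeq2 61, with 1009 (4.76%) at an unadjusted p under 0.05 in edgeR. HHEX came nearest (log2 fold change 1.46, SE 0.54, unadjusted p = 0.0197, edgeR adjusted p = 0.973, higher on 4 of 4 days), followed by HNF4A (-1.15, SE 0.54, unadjusted p = 0.0570 in the edgeR fit, lower on 3 of 4 days). HHEX passed with edgeR when only both arms entered the fit (adjusted p = 0.0405) and with no filter (0.0150), over a range of 0.0150 to 1.00. The SOX17, FOXA1, FOXA2 and FOXA3 values had SEs as large as or larger than the fold change. Between single libraries no member passed the difference of 1 on Days 3 and 5, beside 4.15% and 2.97% of genes, and 2 of 6 passed it on Day 7, HHEX upward and HNF4A downward, beside 7.26% of genes, and 2 on Day 10, FOXA2 and HNF4A downward, beside 5.64% lower.

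Passaged cells against NP-IWP2 shared their passaged libraries with the first comparison. Here edgeR called 2 of 6 members lower, HNF4A (adjusted p = 0.00654) and HHEX (log2 fold change -3.42, SE 0.61, adjusted p = 0.0242), each lower on 4 of 4 days, where 0.915% of genes were called lower. The other 4 members had fold changes from -2.61 for SOX17 to -1.15 for FOXA3 and edgeR adjusted p from 0.187 to 0.452. The HNF4A call held in 6 of 10 alternatives. Among the losses were the fits without Day 5 (edgeR adjusted p = 0.0737) and without Day 7 (0.113), over a range up to 0.410. The HHEX call held in 4 of 10 alternatives. Its losses included the fits without Day 5 (edgeR adjusted p = 0.0537), Day 7 (0.0802) or Day 10 (0.0887), over a range up to 0.284. Without Day 3, SOX17 (edgeR adjusted p = 0.0110) and FOXA2 (0.0262) were called lower as well, with ranges up to 0.937 and 0.918, while calls over all genes rose from 282 to 675. DESeq2 called SOX17 in addition (adjusted p = 0.0331), among 892 of 21206 genes called in either direction. With no filter edgeR called all 6 members lower, among 1368 genes called in either direction of the larger set. The share of that set called lower is not given here. Between single libraries 1, 4, 4 and 4 of 6 members were lower by 1 on Days 3, 5, 7 and 10, beside 5.05%, 4.02%, 4.38% and 7.01% of genes.

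**Figure D4:**
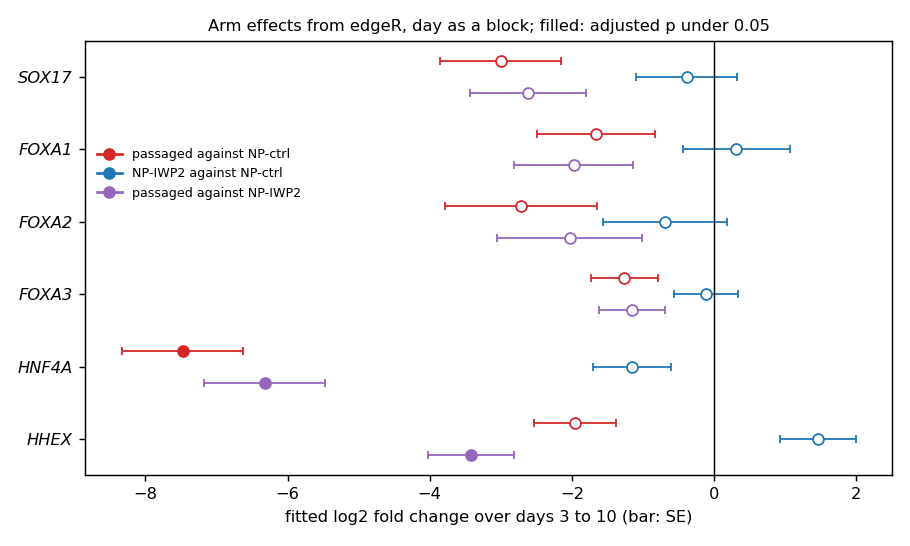
Fitted log2 fold change of each member over Days 3 to 10 with its SE, from edgeR with the day as a block, in 3 comparisons that share libraries. Filled points have an adjusted p under 0.05: HNF4A in both comparisons of passaged cells, and HHEX in passaged against NP-IWP2, where it is -3.42. The HNF4A points of passaged cells rest on 3 or fewer passaged counts per library and do not measure the size of the difference.

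Genes known to act with the members were read from lists chosen with earlier results of these data known. Of 12 definitive endoderm partners, edgeR called CER1, a secreted NODAL and WNT antagonist, lower in passaged than in NP-ctrl cells (log2 fold change -4.22, adjusted p = 0.00874) and CXCR4, a chemokine receptor of endoderm and mesoderm, higher (2.09, adjusted p = 0.0303). The median of the 12 was -0.85, beside -0.003 over all genes, of which 2.76% were called lower and 1.64% higher. Against NP-IWP2, CER1, EOMES and OTX2 were called lower in passaged cells and none higher, beside 0.915% of all genes called lower. GATA4, a factor of endoderm and heart alike, read 68.3 FPKM in NP-ctrl on Day 10, 78.8 under IWP2 and 71.7 after passaging.

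Of 14 liver and gut transcription factors, 9 were tested, with a median of -1.74 in passaged against NP-ctrl cells. There 4 were called lower, all on 4 of 4 days, and none higher, beside 2.76% of all genes called lower. They included CDX2, the hindgut factor (log2 fold change -4.41, adjusted p = 0.00791 in edgeR), CEBPA, a hepatocyte factor (-3.11, adjusted p = 0.0267), and ONECUT1, of liver and pancreas (-1.68, adjusted p = 0.0383). PROX1 (log2 fold change 1.15, edgeR adjusted p = 0.135) and SOX9 (0.964, adjusted p = 0.267) went the other way without passing. Each was higher in passaged than in NP-ctrl cells on 3 of 4 days. PROX1 read 19.9 FPKM after passaging on Day 10, against 4.35 in NP-ctrl. PDX1, of pancreas, and NKX2-1, of lung and thyroid, stayed at or below 0.37 FPKM.

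The 14 liver and yolk sac products, secreted proteins of hepatocytes and visceral endoderm, were highest in the static arms. Of them 9 were called lower in passaged than in NP-ctrl cells and 5 lower than in NP-IWP2, with none higher. Over all genes 2.76% and 0.915% were called lower. AFP, the fetal albumin-like protein, read 2366 FPKM in NP-ctrl on Day 10, 716 under IWP2 and 0.23 after passaging. APOA1, of high-density lipoprotein, read 1047, 314 and 17.4 FPKM in the same order. ALB, the defining product of mature hepatocytes, was at 5.28, 5.24 and 2.78 FPKM on that day. Over the 4 days ALB did not follow AFP. It was higher in passaged than in NP-ctrl cells on 3 of 4 days without passing (log2 fold change 0.485, edgeR adjusted p = 0.653). Between NP-IWP2 and NP-ctrl edgeR called none of the 14, with a median of -1.55 and 4 lower on all 4 days. Of the 14, 8 had an unadjusted p under 0.05, beside 4.76% of all genes.

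Other cell types that use the members were read in the same way. Of 10 endothelium and blood precursor genes 7 were tested and edgeR called none in any comparison. At most 3 had an unadjusted p under 0.05, in passaged against NP-IWP2, beside 12.9% of all genes. Their summed level was 99.0 to 166 FPKM in the static libraries and 19.1 to 122 in the passaged ones, mostly KDR. The defining endothelial genes CDH5 and PECAM1 were at or below 0.51 FPKM through Day 7. On Day 10 they reached 2.44 and 1.29 in NP-IWP2. TEK, also on this list, read 30.8 FPKM in NP-ctrl on Day 7, 18.6 under IWP2 and 1.72 after passaging. In the same order it read 22.8, 13.5 and 0.68 on Day 10, but 0.28, 0.23 and 1.52 on Day 3 and 6.77, 2.49 and 4.68 on Day 5. TEK did not pass in passaged against NP-ctrl (log2 fold change -1.24, edgeR adjusted p = 0.609). Of 7 axial mesoderm and floor plate genes 4 were tested. CHRD, a secreted BMP antagonist, was called higher in passaged cells against both static arms (log2 fold change 1.06 and 1.07, edgeR adjusted p = 0.0117 and 0.0233). Over all genes 1.64% and 0.415% were called higher. None of 6 epithelial genes was called by edgeR. At most 2 had an unadjusted p under 0.05, in passaged against NP-ctrl, beside 19.2% of all genes. The median of the 6 there was -0.07. Of 5 cardiomyocyte genes edgeR called none, and 5 had an unadjusted p under 0.05 in passaged against NP-ctrl, beside 19.2% of all genes. Their sum on Day 10 was 424 FPKM in NP-ctrl, 1339 under IWP2 and 3276 after passaging. The part of these cell types in the members' levels was not tested.

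**Figure D5:**
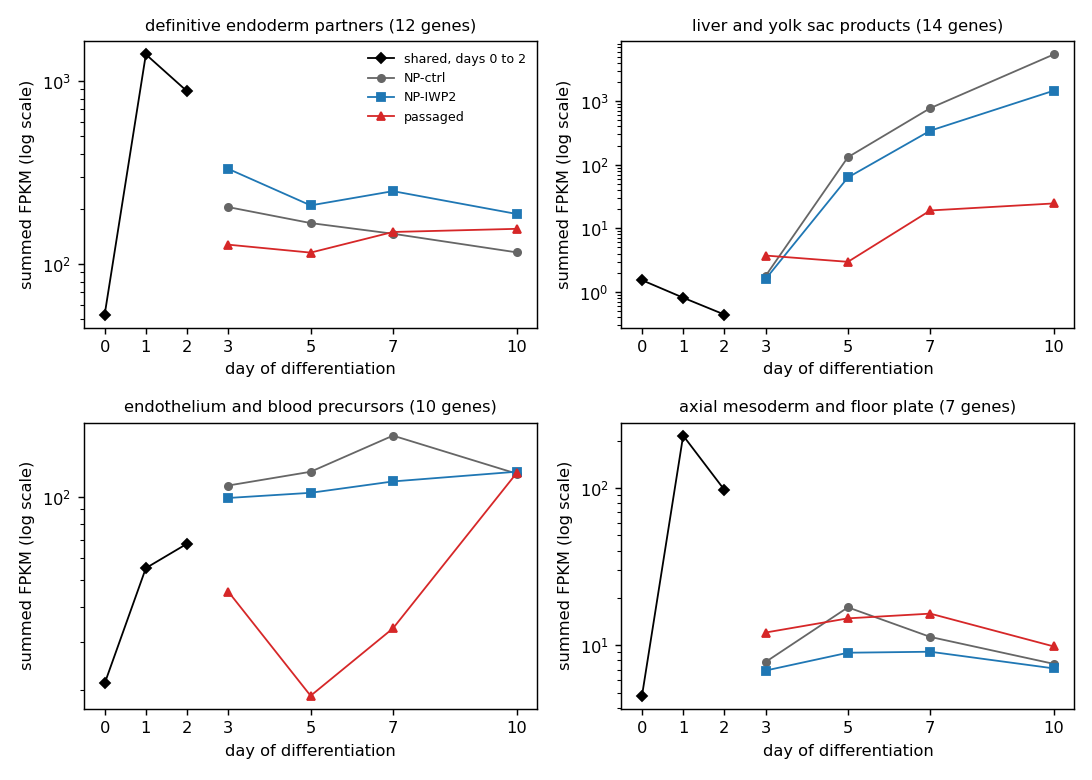
Summed FPKM of 4 gene lists against the day of differentiation on log axes, 1 library per point, with shared libraries in black, NP-ctrl in grey, NP-IWP2 in blue and passaged cells in red. The liver and yolk sac products reach 5442 in NP-ctrl, 1464 under IWP2 and 24.6 after passaging on Day 10, while the endoderm partners peak on Day 1 at 1397.

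By correlation of log2(FPKM + 1) over the 15 libraries, which share cultures and days, the protein-coding gene most like HNF4A was SOAT2, which esterifies cholesterol in liver and intestine (r = 0.992), followed by HOXB6 (0.984), GDF7 (0.979), TYRP1 (0.975) and RIPOR3 (0.973). The closest to SOX17 were PSKH2 (0.941), MYCBPAP, INPP4A, HECW2 and ZNF236 (0.899). PDZD4 was closest to FOXA3 (0.950), SLC16A5 to FOXA2 (0.884), SLITRK5 to HHEX (0.862) and GLYATL2 to FOXA1 (0.853). The members themselves were left out of the genes ranked. Between members r ran from -0.11 for FOXA3 and HNF4A to 0.69 for FOXA1 and HNF4A. These values are descriptions across libraries and carry no test.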

How the data were processed

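RNA was sequenced from 15 libraries of H1 cells, 1 per arm and day. Per the labels, the authors trimmed reads with cutadapt 1.9.1, aligned them with HISAT2 2.0.1 to hg38, and counted reads per gene with HTSeq 0.6.1. They deposited raw counts and FPKM values in 1 table of 60605 genes. The deposited FPKM values were recomputed from the counts and exonic lengths within 0.005. The submitters' notes also name DESeq2, without a version or design. Strand use was not given in the sources used here.

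Genes with at least 1 FPKM in at least 1 library were kept (21206). Arms were compared over the 12 libraries of Days 3 to 10 with edgeR 4.0.16 on the counts as deposited (TMM, quasi-likelihood test, day as a block, adjusted p under 0.05), in R 4.3.3. The labels number no replicates across groups, so the day is the block. limma 3.58.1 and DESeq2 1.42.0 served as alternatives. Both were tested with edgeR on simulated data. Single libraries were compared without a test, by a difference of 1 on log2(FPKM + 1), which shrinks fold changes at low levels, and by FPKM ratios with exact 95% intervals (Clopper-Pearson) that cover counting error only. Counts of 0 were raised to a floor of 3.

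The members and gene lists were chosen with earlier results of these data known. Genes named are the members, list genes that passed a test in one direction on all 4 days or that define a cell type, neighbours within 10 kb, and the 5 protein-coding genes most like each member. Other list genes given by level or by a change that did not pass were chosen after their values were seen. Examples are AFP, APOA1, ALB, GATA4, TEK, PROX1 and SOX9, and the same holds for the pluripotency genes. Coordinates matched GENCODE 44 for 5 of the 6 members. One list gene is not reported here by name.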

Additional observations from a re-analysis of the deposited data

Results flagged for a closer look

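FOXA2 moved in opposite directions between Days 3 and 5, rising 3.18-fold in NP-ctrl (147 to 450 counts) and falling 4.50-fold in passaged cells (246 to 61 counts). The difference was not tested, as each arm had 1 library per day, and the passaged library of Day 3 had the lowest mitochondrial share, 1.53%.

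HHEX moved in opposite directions between Days 5 and 7, rising 4.84-fold in NP-IWP2 (86 to 476 counts) and falling 7.36-fold in passaged cells (30 to 4 counts). This difference was not tested either.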

How the results depend on the processing

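Genes called with the day as a block by edgeR numbered 933 for passaged against NP-ctrl, 4 for NP-IWP2 against NP-ctrl and 282 for passaged against NP-IWP2. In the same order they numbered 163, 0 and 6 with limma, 2150, 61 and 892 with DESeq2, 2571, 372 and 1368 with no filter, and 109, 277 and 163 with only the 2 arms compared. A mean FPKM of at least 5 left 342 and 53 in the comparisons of passaged cells. Without the replicate block (the day), 1, 0 and 2 were called. Leaving out each day in turn gave 133 to 2373, 0 to 35 and 13 to 675, with the highest number each time without Day 3. The cause of these moves was not tested, and other normalization factors gave 931, 4 and 283.

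Members past the difference between single libraries numbered 1 for Day 1 against Day 0, 3 for Day 2 against Day 0, 2 for Day 2 against Day 1, and 1, 0 and 1 for Day 3 against Day 2 in NP-ctrl, under IWP2 and after passaging. Over 24 pairs of member and day they numbered 12 for passaged against NP-ctrl, 4 for NP-IWP2 against NP-ctrl and 13 for passaged against NP-IWP2. A pseudocount of 0.1 gave 2 for Day 1 against Day 0, 2 for NP-IWP2 and 2 for passaged cells on Day 3 against Day 2, and 8 for NP-IWP2 against NP-ctrl. TPM gave 2 for Day 1 against Day 0, 2 for passaged cells on Day 3 and 7 for NP-IWP2 against NP-ctrl, and moved the median of all genes by up to -0.376 (passaged against NP-ctrl, Day 10). A difference of at least 2 left 1 for Day 2 against Day 1, 0 for NP-ctrl on Day 3, and 7, 0 and 4 for the arm pairs. A mean FPKM of at least 5, which few members have, left 0, 1 and 1 for the early days, 0 for NP-ctrl and passaged cells on Day 3, and 1, 0 and 2 for the arm pairs.

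The fitted log2 fold change between NP-IWP2 and NP-ctrl changed sign for FOXA1 without Day 7 and for FOXA3 without Day 10, and ran from -0.17 to 0.68 and from -0.39 to 0.25 when each day was left out in turn. Of the single values, 459 stayed on their side of the threshold (an adjusted p of 0.05 or, with no test, a log2 difference of 1 or a count of similar genes within 1.5 times), 49 untested values crossed it, and 20 tested values gained and 13 lost a call. Low counts limit SOX17, FOXA1, FOXA2, HNF4A and HHEX in passaged cells on Days 7 and 10, and FOXA3 on Day 10. They also limit passaged SOX17 on Day 5 (3 counts) and passaged HNF4A on Days 3 and 5 (3 and 0 counts). Of the 5 genes most like HNF4A, 4 remained with Days 3 to 10 only and 0 by rank correlation, and of those most like SOX17 and FOXA2, 0 remained with Days 3 to 10 only.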
